A study of Mus musculus with 6 samples.

Results

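Glycosyltransferases are Golgi enzymes that build the sugar chains of mucins, other glycoproteins and glycolipids by adding 1 sugar at a time. On mucins, Galnt enzymes start a chain with N-acetylgalactosamine on serine or threonine, Gcnt enzymes branch it, B3gnt, B3galt and B4galt enzymes lengthen it, and fucosyltransferases (Fut) and sialyltransferases (St3gal, St6gal, St6galnac, St8sia) cap it. On glycolipids, B4galt5 and B4galt6 make lactosylceramide, from which B3gnt5 starts the lacto series and St3gal5 the ganglio series. In the intestine these chains form the mucus and the cell-surface coat, and they carry the histo-blood group and Lewis antigens.

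The genes described here are the rows of a deposited expression table whose symbol begins with B3gnt, B3galt, B4galt, B4galnt, Fut, St3gal, St6gal, St6galnac, St8sia, Galnt or Gcnt followed by a digit. There were 72 of them among 23224 genes. They were compared between 3 libraries labelled SOX17KO, from organoids that the study describes as deleted for SOX17 with CRISPR-Cas9, and 3 libraries labelled Control. All 6 came from mouse AKP organoids, which are cultures derived from tumours that had grown in vivo, so both groups share the AKP background; the study asked about SOX17 in colon cancer. The labels neither spell out the AKP alleles nor say how many clones were used or whether replicates were separate cultures. The p-values therefore measure only how far these samples spread, which may be technical.

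Library totals were 18290912 to 24765258 counts in SOX17KO and 21238718 to 27503254 counts in Control. Levels are given as CPM, counts scaled to a common library size, and were not divided by gene length, so they compare libraries and not genes. The RNA of Sox17, the targeted gene, stood at 33.8, 41.9 and 45.1 CPM in SOX17KO and at 34.4, 34.5 and 34.2 CPM in Control (log2 fold change 0.23 ± 0.12 SE, edgeR adjusted p = 0.345). Leaving out SOX17KO replicate 1 made it a higher call (log2 fold change 0.34, edgeR adjusted p = 0.0113). Its RNA level therefore does not check the labels, and every direction below rests on them. SOX17KO replicate 1 stood apart: its log2 CPM correlated at 0.960 and 0.963 with its group, whose other two libraries correlated at 0.986, while Control libraries correlated at 0.994 to 0.995. Epithelial markers (8 genes) summed to 10154 to 14463 CPM in SOX17KO and 13567 to 14372 CPM in Control, fibroblast markers (8 genes) to at most 0.420 CPM in SOX17KO and 0.0724 CPM in Control, and immune markers (7 genes, mainly Cd68) to 5.18 to 14.0 CPM in SOX17KO and 8.56 to 11.0 CPM in Control. Of 6 intestinal identity markers, whose sum was 1353 to 1637 CPM in SOX17KO and 690 to 743 CPM in Control, 5 were tested and 4 rose (Hnf4a 16.9-fold, Cdh17 3.65-fold, Lgr5 3.24-fold and Lgals4 1.94-fold), while Cdx2 was not called and Cdx1 was at 0 in 4 of the 6 libraries. Of the 8 epithelial markers 2, Epcam and Cldn7, rose as well. Enterocyte markers (8 genes) went the other way, at 0.776 to 0.954 CPM summed in SOX17KO and 1.56 to 2.58 CPM in Control. Only 1 of them, Fabp2, was tested, and it was not called. The epithelial marker Krt19 was lower in every SOX17KO library than in any Control library and was not called. The markers that rose did so along with the glycosyltransferase genes that rose, and the part of any marker in those results was not tested.

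Of the 72 genes, 46 passed the low-count filter and were tested. In the libraries labelled SOX17KO 6 rose and 0 fell by edgeR's quasi-likelihood test at an adjusted p below 0.05, which is 13.0% of those tested, against 6.87% of all 12137 genes called in either direction and 3.67% called higher. The 6 were the glycolipid enzymes B3gnt5 and B4galt5, the lactosamine-extending B3gnt7, the O-glycan starter Galnt10, the sialyltransferase St6galnac4 and the fucosyltransferase family gene Fut11. Without adjustment, 9 genes had p below 0.05 on the higher side and 3 on the lower. The count of higher genes was 8 with DESeq2 (16.3% of members tested, against 10.7% of all genes) and 5 with limma-voom (10.9%, against 6.25%), and neither called a gene lower. The median log2 fold change of the tested genes was 0.13, against 0.014 over all tested genes, and its median size 0.26 against 0.15. The median of 0.13 depended on the setting. It was 0.18 with DESeq2, 0.011 with limma-voom, 0.015 with a replicate block and 0.043 with a filter of 1 CPM in 3 libraries. Without SOX17KO replicate 1 it was 0.28, and without SOX17KO replicate 2 it was -0.03. Because a member had to reach the filter in some libraries to be tested, these shares describe the tested genes and not the families. St6galnac4, among the 6, was tested only through the SOX17KO libraries, with at most 4 counts in any Control library, so its inclusion in the 13.0% is no support for that share. St6galnac6 and B3gnt9-ps, both among the 9 genes on the higher side without adjustment, also reached the filter only through the SOX17KO libraries. In bulk libraries fewer cells of a type and less RNA per cell cannot be told apart.

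The promoters of 3 of the called genes are shown because 2 of them, B3gnt5 and B4galt5, encode consecutive steps of lacto-series glycolipid synthesis and B3gnt7 is the other called gene of its family. Each runs from 250 bases before to 50 bases after the start site, as RefSeq places it on GRCm38.p6, while the deposited table was made with mm9. Capitals mark the GC box, GGGCGG on either strand. B3gnt5 lies at chr16:19759984-19760283, + strand, B3gnt7 at chr1:86302971-86303270, + strand and B4galt5 at chr2:167349129-167349428, - strand.
B3gnt5: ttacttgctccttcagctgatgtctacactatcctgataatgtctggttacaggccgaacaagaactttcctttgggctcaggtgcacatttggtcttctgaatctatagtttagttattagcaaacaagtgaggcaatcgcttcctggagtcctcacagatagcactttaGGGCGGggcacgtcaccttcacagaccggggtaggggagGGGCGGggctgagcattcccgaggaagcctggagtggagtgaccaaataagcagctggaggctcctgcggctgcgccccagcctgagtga
B3gnt7: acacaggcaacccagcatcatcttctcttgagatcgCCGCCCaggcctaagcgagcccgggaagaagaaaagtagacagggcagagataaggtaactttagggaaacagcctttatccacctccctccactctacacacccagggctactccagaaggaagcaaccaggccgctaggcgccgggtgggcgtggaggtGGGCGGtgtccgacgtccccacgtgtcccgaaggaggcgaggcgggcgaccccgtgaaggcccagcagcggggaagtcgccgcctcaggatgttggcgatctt
B4galt5: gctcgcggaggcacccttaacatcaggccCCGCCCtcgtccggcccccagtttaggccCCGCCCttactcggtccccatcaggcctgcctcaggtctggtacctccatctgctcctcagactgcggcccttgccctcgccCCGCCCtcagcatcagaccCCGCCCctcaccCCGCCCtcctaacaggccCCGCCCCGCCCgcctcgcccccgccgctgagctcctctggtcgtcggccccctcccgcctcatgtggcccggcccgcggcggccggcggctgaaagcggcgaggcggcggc
B3gnt5 held 2 GC boxes, starting at bases -79 and -40 from the start site, B3gnt7 also 2, and B4galt5 7. A GC box was present in 27 of the 45 promoters listed for tested members and in 35.7% of 32851 promoters of this length. The 45 belong to 33 of the tested members, of which 26 had a GC box. Tested members passed a count filter and the 32851 promoters did not, so the sets are unlike and their shares were not compared by a test. The SOX core ACAAT or ATTGT, on either strand, was in none of the 6 promoters of called members, in 12 of those 45 and in 31.0% of all promoters. The TCF/LEF letters ATCAAAG or CTTTGAT were likewise in none of the 6, and in 3.73% of all promoters. A match is a description of letters and not a binding site, and its absence says only that the letters are not in these windows.

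Among glycolipid enzymes, B3gnt5 and B4galt5 rose while B4galt6, which catalyses the same reaction as B4galt5, was not called. B3gnt5, which adds N-acetylglucosamine to lactosylceramide, measured 125.6, 128.9 and 114.3 CPM in SOX17KO and 42.3, 45.4 and 40.1 CPM in Control, in the order of replicates 1, 2 and 3 used throughout. All SOX17KO libraries were more than 2-fold above all Control libraries, with means of 122.9 ± 7.66 CPM in SOX17KO and 42.6 ± 2.66 CPM in Control (SD, n = 3 each). The log2 fold change was 1.53 ± 0.09 (SE), a 2.89-fold difference (edgeR adjusted p = 0.000449). It was the 1 member called in every one of the 15 alternative settings, including the 6 that left out a library, with log2 fold changes of 1.48 to 1.58 and adjusted p of at most 0.0100.

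B4galt5, a lactosylceramide synthase, was at 58.6, 34.6 and 31.5 CPM in SOX17KO and at 15.2, 17.6 and 17.2 CPM in Control. The groups did not overlap, and SOX17KO replicate 1 was the highest library. Its log2 fold change was 1.32 ± 0.24 (edgeR adjusted p = 0.0211), and 0.99 without SOX17KO replicate 1, where it was still called (adjusted p = 8.46e-05). It was not called without any 1 of the Control libraries (edgeR adjusted p 0.0983 to 0.126). B4galt6 was at 255.7, 247.8 and 278.4 CPM in SOX17KO and at 259.2, 279.6 and 272.2 CPM in Control, and these ranges overlap. Its log2 fold change was -0.05, with a 95% interval of -0.24 to 0.14 (edgeR adjusted p = 0.801). The difference between B4galt5 and B4galt6 was not itself tested.

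**Figure D1:**
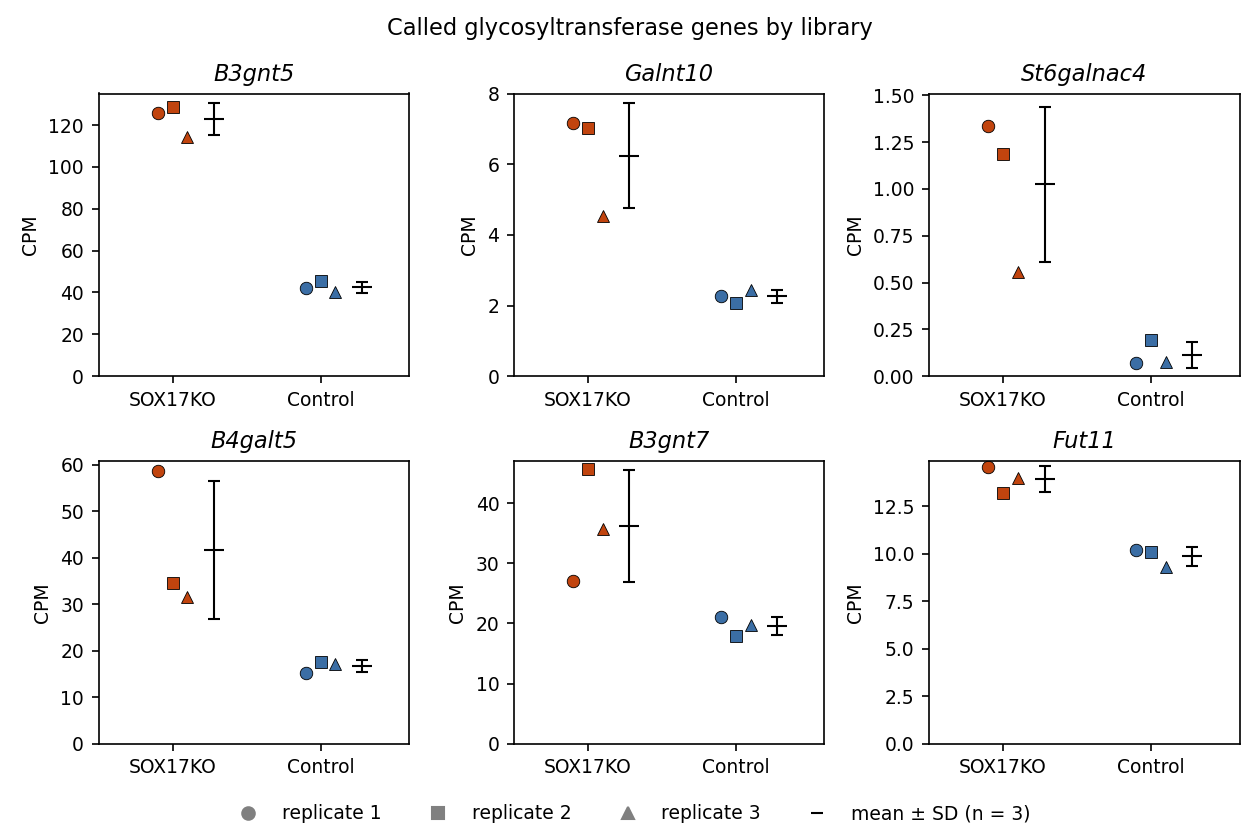
CPM of the 6 called glycosyltransferase genes in each library (points, shape by replicate), with the mean and SD of 3 libraries beside each group. In every panel the 3 SOX17KO libraries lie above the 3 Control libraries, most tightly for B3gnt5 and Fut11.

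Among the genes of the ganglioside branch, B4galnt1, St8sia1 and B3galt4 are described here, and 0 of them were called with all libraries. This is not every tested ganglioside gene. St6galnac6, given with the sialyltransferases below, was not called by edgeR but was called higher by DESeq2 with all libraries (DESeq2 adjusted p = 0.0333). St3gal5, which makes the first ganglioside GM3, had 8 counts in all over the SOX17KO libraries and 4 over the Control libraries and was too low to test. B4galnt1, which makes GM2 and GD2, was at 11.9, 64.9 and 41.2 CPM in SOX17KO and at 35.5, 35.4 and 35.2 CPM in Control. SOX17KO replicate 1 was thus below, and replicates 2 and 3 above, all Control libraries, which were nearly equal; the log2 fold change was 0.15 with an interval of -1.04 to 1.34 (edgeR adjusted p = 0.923). Without SOX17KO replicate 1 it passed the test as higher (log2 fold change 0.59, edgeR adjusted p = 0.0195). St8sia1, which makes GD3, was near the detection limit, at 0.436, 0.125 and 0.124 CPM in SOX17KO and at 0.464, 0.383 and 0.591 CPM in Control (log2 fold change -1.06 ± 0.54, edgeR adjusted p = 0.337). It was called lower without SOX17KO replicate 1 (log2 fold change -1.96, edgeR adjusted p = 0.0377). B3galt4, which makes GM1, was at 8.44 to 9.79 CPM in SOX17KO and 7.27 to 8.36 CPM in Control, and every SOX17KO library was above every Control library, a difference that did not pass the test (edgeR adjusted p = 0.526).

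Of the 13 Galnt genes that match the symbol rule, which start mucin-type chains, 8 were tested. Of these 1 rose, 0 fell and 7 were not called, with 2 at an unadjusted edgeR p below 0.05 (DESeq2 and limma-voom each called 1 higher and 0 lower). Galnt-like genes under other symbols are not among the 13. Galnt10, whose enzyme prefers peptides that already carry a sugar, was at 7.18, 7.02 and 4.54 CPM in SOX17KO and at 2.28, 2.08 and 2.43 CPM in Control. The lowest SOX17KO library was above the highest Control library, and the log2 fold change of 1.47 ± 0.23 corresponds to 2.77-fold (edgeR adjusted p = 0.0131). It missed the threshold without any 1 of the Control libraries (edgeR adjusted p 0.0749 to 0.0872). Galnt3, the family member with the most counts, was at 217.4, 262.0 and 276.8 CPM in SOX17KO and at 255.3, 272.6 and 260.4 CPM in Control, with overlapping groups (log2 fold change -0.06, edgeR adjusted p = 0.830). Galnt11, a transferase with non-mucin substrates, was lower in every SOX17KO library than in any Control library, at 5.76, 9.59 and 10.5 CPM in SOX17KO and 13.4, 14.1 and 12.5 CPM in Control. That difference was not called (log2 fold change -0.63, 95% interval -1.16 to -0.11, edgeR adjusted p = 0.161), but it was without SOX17KO replicate 1 (adjusted p = 0.0319). Of the other tested starters, Galnt1, Galnt2, Galnt4, Galnt7 and Galnt12 had log2 fold changes of -0.29 (Galnt2) to 0.17 (Galnt1), and none was called with all libraries. Galnt1 was called higher without SOX17KO replicate 1. Galnt13 and Galnt14 had 0 counts in every library, and Galnt5, Galnt6 and Galnt9 had 1, 17 and 8 counts over all 6.

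The Gcnt genes, which add the branches of core 2 and core 4 O-glycans and of I-antigen chains, showed no call in 4 tested of 5, with 0 at an unadjusted p below 0.05 and 0 calls by DESeq2 and limma-voom. Gcnt3, the mucin-type branching enzyme of the gut, was at 111.9, 291.5 and 282.5 CPM in SOX17KO and at 233.5, 236.7 and 216.2 CPM in Control. The first SOX17KO library was below every Control library while the other two exceeded every Control library, and the mean was 228.6 ± 101.2 CPM in SOX17KO and 228.8 ± 11.0 CPM in Control (SD, n = 3 each). Its log2 fold change was -0.00 with a 95% interval of -0.77 to 0.77. Gcnt1 and Gcnt4, other core 2 enzymes, had the same arrangement, at 50.3, 86.3 and 104.2 CPM in SOX17KO and 75.6 to 83.7 CPM in Control for Gcnt1. For Gcnt4 the values were 21.9, 45.7 and 41.3 CPM in SOX17KO and 35.6 to 37.0 CPM in Control. Without SOX17KO replicate 1, Gcnt3 and Gcnt4 were called higher, at a log2 fold change of 0.33 for Gcnt3 (edgeR adjusted p = 0.00859).

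Of 9 B3gnt genes 6 were tested, of which 2 rose and 0 fell. Beside B3gnt5, B3gnt7, which extends lactosamine and keratan sulfate chains, was at 27.1, 45.6 and 35.7 CPM in SOX17KO and at 21.1, 17.9 and 19.7 CPM in Control. The groups did not overlap, and the log2 fold change was 0.88 ± 0.19 (edgeR adjusted p = 0.0380). B3gnt7 was not called by limma-voom or when any 1 library other than SOX17KO replicate 1 was left out (edgeR adjusted p 0.0586 to 0.177). B3gnt3, which extends core 1, was at 164.6, 263.2 and 233.2 CPM in SOX17KO and at 213.8, 194.5 and 189.5 CPM in Control, with overlapping groups (edgeR adjusted p = 0.730); without SOX17KO replicate 1 it was called higher (adjusted p = 0.0204). B3gnt9-ps, whose current RefSeq symbol is B3gnt9, was above all Control libraries in each SOX17KO library at a low level, 0.609 ± 0.0563 CPM in SOX17KO and 0.287 ± 0.0630 CPM in Control (log2 fold change 1.11 ± 0.34, edgeR adjusted p = 0.111). B3gnt6, which makes core 3, the core of colonic mucins, had 17 counts over SOX17KO and 10 over Control and was not tested. The symbol B3gnt1 is an older name of both B3gnt2 and B4gat1 in RefSeq, so its row, at 21.1 ± 2.94 CPM in SOX17KO and 21.4 ± 0.644 CPM in Control, is given no role.

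The galactosyltransferases B3galt5 and B4galt7 stood out among the genes not called. B3galt5, which makes the type 1 chains that carry Lewis a and b antigens, was at 9.73, 74.7 and 27.0 CPM in SOX17KO and at 31.4, 29.5 and 30.1 CPM in Control. The SOX17KO libraries ranged over more than 7-fold around a narrow Control range, and the log2 fold change of 0.29 had a 95% interval of -1.16 to 1.74 (edgeR adjusted p = 0.865). B4galt7, which builds the linker of proteoglycan chains, was at 12.9, 17.2 and 16.5 CPM in SOX17KO and at 10.7, 10.3 and 9.70 CPM in Control. Its groups did not overlap, and its log2 fold change of 0.60 ± 0.14 missed the threshold with edgeR (adjusted p = 0.0513) but was called by DESeq2, when scaled by totals alone and without SOX17KO replicate 1. B4galt3 and B4galt4 were also called higher without SOX17KO replicate 1. B4galt1, which adds galactose to most lactosamine chains, was at 101.4, 109.0 and 116.6 CPM in SOX17KO and at 130.8, 130.0 and 119.6 CPM in Control (log2 fold change -0.22, 95% interval -0.42 to -0.02, edgeR adjusted p = 0.202). Of the 4 B4galnt genes 0 were called by edgeR, DESeq2 or limma-voom, with 0 at an unadjusted p below 0.05 by edgeR. B4galnt2, which makes the Sda antigen of colonic epithelium, was at 7.22, 2.01 and 4.25 CPM in SOX17KO and at 2.28, 2.32 and 2.28 CPM in Control. B4galnt3, which caps chains with N-acetylgalactosamine, was at 4.81, 13.5 and 17.8 CPM in SOX17KO and at 21.3, 16.9 and 18.0 CPM in Control. In both genes SOX17KO replicate 1 was the extreme library, and the interval of the log2 fold change was -0.03 to 1.99 for B4galnt2 and -1.62 to 0.33 for B4galnt3. With SOX17KO replicate 2 left out, B4galnt2 passed as higher (edgeR adjusted p = 0.0431).

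Among 9 Fut genes 5 were tested, and 1 rose and 0 fell. Fut11 was at 14.6, 13.2 and 14.0 CPM in SOX17KO and at 10.2, 10.1 and 9.28 CPM in Control. The groups did not overlap, and the log2 fold change was 0.50 ± 0.11, or 1.41-fold (edgeR adjusted p = 0.0410). It was not called when scaled by totals alone (edgeR adjusted p = 0.0563), without a low-count filter, or when any 1 library other than SOX17KO replicate 1 was left out (highest edgeR adjusted p 0.203). Fut2, the secretor enzyme that makes the H antigen of mucins, was at 153.5, 278.1 and 233.5 CPM in SOX17KO and at 202.6, 191.7 and 188.1 CPM in Control. Fut1, the second H-antigen enzyme, was at 4.12, 11.7 and 14.4 CPM in SOX17KO and at 7.96, 7.22 and 5.90 CPM in Control. For both, SOX17KO replicate 1 was below all Control libraries and the other two above them, and neither was called (edgeR adjusted p = 0.697 for Fut2 and 0.590 for Fut1); both were called higher without SOX17KO replicate 1. Fut9, which makes Lewis x, was lower in every SOX17KO library than in any Control library, at 77.8, 95.6 and 123.1 CPM in SOX17KO and 130.4, 152.8 and 133.5 CPM in Control, and was not called (log2 fold change -0.49, 95% interval -0.89 to -0.10, edgeR adjusted p = 0.146); it was called lower without SOX17KO replicate 3. Fut8, which adds the core fucose of N-glycans, was at 173.4, 223.2 and 204.1 CPM in SOX17KO and 203.3, 193.3 and 186.6 CPM in Control, with overlapping groups. Fut4 and Fut7 had 6 and 1 counts over all 6 libraries and were not tested.

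Among sialyltransferases, St6galnac4 rose at a low level and the St3gal genes were not called. St6galnac4, which adds a further sialic acid to sialylated core 1 O-glycans, was at 1.34, 1.19 and 0.554 CPM in SOX17KO and at 0.0724, 0.191 and 0.0761 CPM in Control. That corresponds to 72 counts over the SOX17KO libraries and 8 over the Control libraries, a ratio of 10.1 with a 95% counting interval of 4.84 to 24.2 (log2 fold change 3.20 ± 0.54, edgeR adjusted p = 0.0167). It was not called without any 1 of the Control libraries (edgeR adjusted p 0.0558 to 0.112). St6galnac6, the next gene on chromosome 2 and an enzyme of gangliosides and disialyl Lewis a, was at 2.48, 0.878 and 0.443 CPM in SOX17KO and at 0.217, 0.287 and 0.266 CPM in Control. Its groups did not overlap either, but the spread between SOX17KO libraries was wide and it was not called (log2 fold change 2.32 ± 0.67, edgeR adjusted p = 0.0946); it was called higher by DESeq2 and without SOX17KO replicate 3. Of 5 tested St3gal genes 0 were called by edgeR, DESeq2 or limma-voom with all libraries, and 0 had an unadjusted edgeR p below 0.05. St3gal4 and St3gal6 were called higher without SOX17KO replicate 1. St3gal3, which caps lactosamine chains and had the most counts, was at 42.9, 56.6 and 53.5 CPM in SOX17KO and at 67.5, 55.2 and 59.5 CPM in Control (edgeR adjusted p = 0.338). St8sia4, a polysialyltransferase, was at 26.6, 40.5 and 56.3 CPM in SOX17KO and at 30.7, 34.9 and 30.1 CPM in Control (edgeR adjusted p = 0.501), and it passed as higher with SOX17KO replicate 1 left out (adjusted p = 0.00911). St6gal1, which caps N-glycans, and St6galnac1, which makes the sialyl-Tn antigen of goblet cell mucin, were not tested, with 13 and 5 counts over all 6 libraries.

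**Figure D2:**
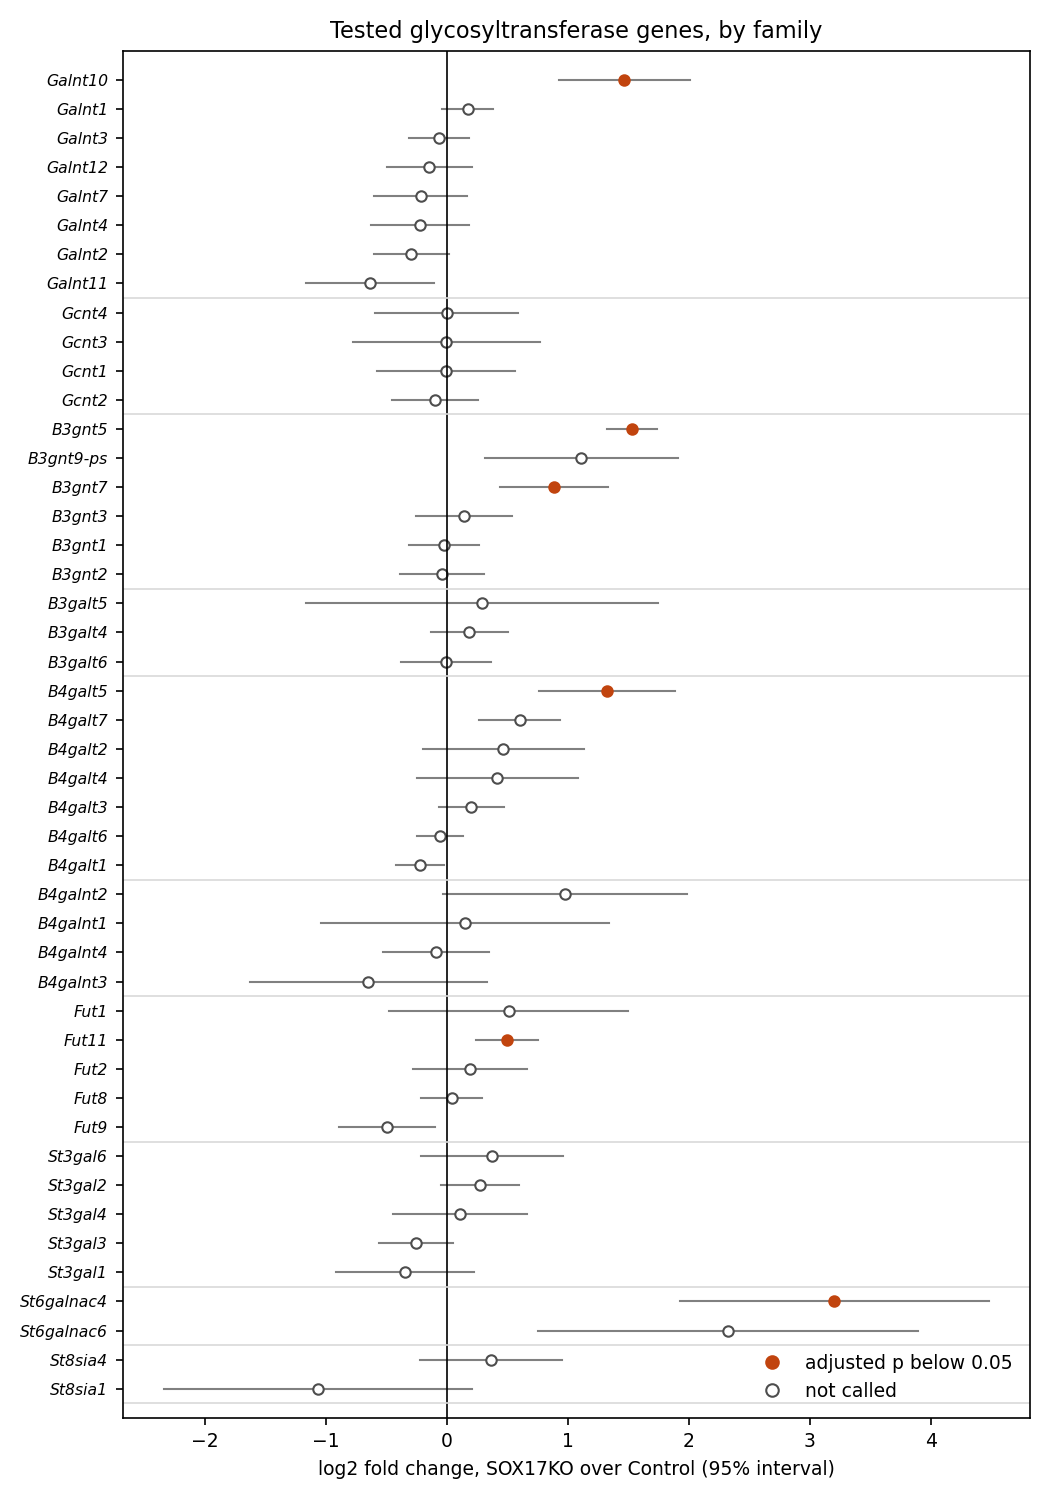
Log2 fold change, SOX17KO over Control, with its 95% interval for the 46 tested genes, ordered within family; filled points passed an adjusted p of 0.05. The 6 filled points all lie to the right of 0, and the widest intervals belong to B3galt5, B4galnt1, St6galnac4, St6galnac6 and St8sia1.

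In all, 13 of the 46 tested genes (28.3%) had SOX17KO libraries all above the Control libraries, against 14.0% of all tested genes, and 4 (8.70%) had them all below, against 14.2%; either way that was 37.0% of members, against 28.2%. The remaining 29 overlapped. Among the 13, St6galnac4, St6galnac6 and B3gnt9-ps reached the low-count filter only through the SOX17KO libraries. Their place among the 13 is therefore no support for the 28.3% found above Control. SOX17KO replicate 1 was the lowest of the 6 libraries for 26 of the 46 genes (56.5%), against 30.8% of all tested genes. In 13 of them (28.3%) it lay below every Control library while SOX17KO replicates 2 and 3 both lay above, against 7.98% of all tested genes; these were Gcnt1, Gcnt3, Gcnt4, B3gnt2, B3gnt3, B4galt4, B4galnt1, Fut1, Fut2, Fut8, St3gal4, St3gal6 and St8sia4. The opposite arrangement occurred in 1 gene, B4galnt4, against 7.06% of all tested genes. The summed level of the 5 Gcnt genes was 231.9, 490.3 and 501.0 CPM in SOX17KO and 393.0 to 424.4 CPM in Control. Goblet markers (10 genes) summed to 227.9, 506.0 and 422.6 CPM in SOX17KO and 304.7 to 345.7 CPM in Control. That arrangement is the one of Agr2, which had most of the counts and was at 130.2, 421.2 and 328.2 CPM in SOX17KO and 238.1 to 267.4 CPM in Control. Of the 7 goblet markers tested, Foxa3 and Clca3 rose and were above Control in all 3 SOX17KO libraries. Fcgbp was below Control in all 3 and was not called, and Tff3 and Zg16 were at most 0.153 CPM in any library. In Spdef and the untested Atoh1, SOX17KO replicate 1 was the highest library. Spdef was at 1.07, 0.571 and 0.333 CPM in SOX17KO and 0.431 to 0.579 CPM in Control, with overlapping groups. Atoh1 was at 1.34, 0.0878 and 0.166 CPM in SOX17KO and at 0.0362, 0 and 0 CPM in Control, so every SOX17KO library was above Control. Creb3l1, at a low level, was above Control in all 3 SOX17KO libraries and Creb3l4 overlapped, and neither was called, nor was Spdef. The part of these markers in the arrangement was not tested. Without SOX17KO replicate 1, edgeR called 19 of the 46 genes higher and 2 lower (45.7%), against 22.2% of all tested genes, and all 6 calls were kept.

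**Figure D3:**
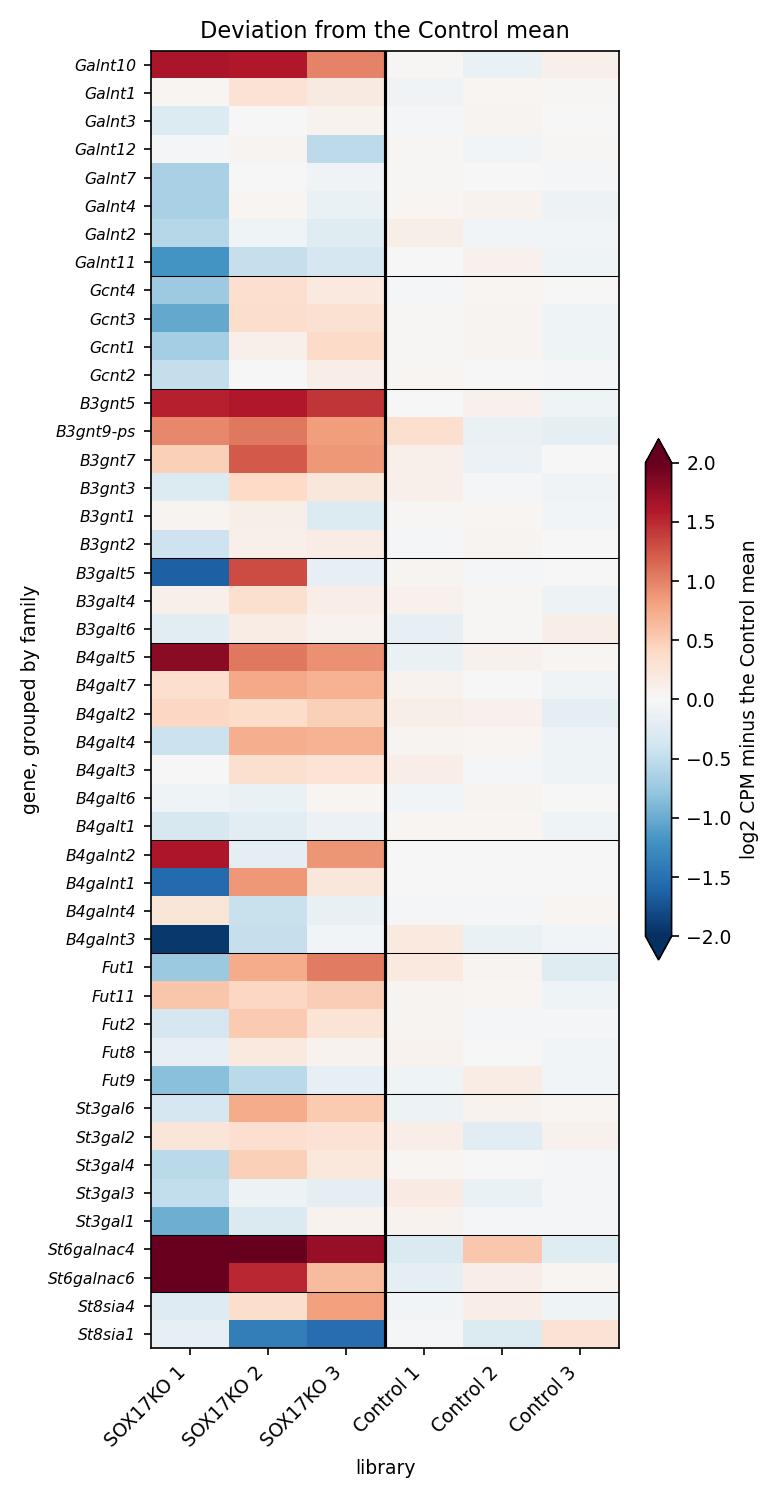
Log2 CPM minus the Control mean for the 46 tested genes (rows, by family) in each library (columns), with colours limited to 2 in size. The SOX17KO replicate 1 column is blue in many rows where replicates 2 and 3 are red, among them Gcnt3, B4galnt1, Fut1 and Fut2, while B3gnt5, Galnt10 and B4galt5 are red in all 3.

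The 26 genes not tested had at most 8 counts in any library and at most 27 over all 6, and 8 of them had 0 in every library: Galnt13, Galnt14, St6gal2, St6galnac3, St6galnac5, St8sia2, St8sia3 and St8sia5. A count of 0 allows up to 3 counts in a library, counting error only. None of the genes with a position in RefSeq, which leaves out B3gnt1, lay in the parts of chromosomes 5 and 12 where neighbouring genes shifted together in the libraries labelled SOX17KO. The 10 nearest tested neighbours of each called gene, 5 on each side, held no other call and had median log2 fold changes of -0.05 (Fut11) to 0.20 (St6galnac4). On chromosome 6, where 75.4% of 586 tested genes had a negative log2 fold change, the tested members were B4galnt3 and St8sia1, and both were negative. In GENCODE M21, exons of B3gnt2, B3gnt7, B3gnt9-ps, B4galt2, B4galt3, B4galt7, B4galnt1, B4galnt2, B4galnt3, Fut8, Galnt2, Galnt7, Galnt11, Gcnt2, Gcnt4, St3gal4, St3gal6 and St8sia1 overlap a gene on the opposite strand, as do those of Sox17, Man1a, Galc, Galt, Gal3st4 and Muc13. Exons of B3gnt2, B4galt2, Galnt2, Galnt4 and Gal3st4 overlap a gene on the same strand. The strand setting of the counting is not given in the sources used here, so the reads of such pairs may not be separated and these values are uncertain.

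Other genes of the pathway were taken from 7 lists with 81 genes tested, of which 9 rose and 2 fell (13.6%, against the 6.87% above). Man1a, a Golgi mannosidase that trims N-glycans, was at 34.3, 22.9 and 26.3 CPM in SOX17KO and at 3.73, 3.44 and 4.57 CPM in Control. It was the 1 call among 12 N-glycan branching genes (log2 fold change 2.83 ± 0.20, edgeR adjusted p = 0.000718), and it was called under all 15 alternatives. Of 25 genes of nucleotide sugar synthesis and transport 3 rose and 0 fell, with 6 at an unadjusted p below 0.05 (DESeq2 and limma-voom each called 3 higher and 0 lower). Gmds, the first enzyme of GDP-fucose synthesis, was at 63.3, 82.8 and 73.4 CPM in SOX17KO and at 38.6, 37.4 and 38.6 CPM in Control (edgeR adjusted p = 0.00453), and was called under all 15 alternatives. Gne, the first enzyme of sialic acid synthesis, averaged 91.6 ± 10.7 CPM in SOX17KO and 51.1 ± 2.73 CPM in Control (SD, n = 3 each; edgeR adjusted p = 0.00578), and missed the threshold without Control replicate 2 or 3 (highest adjusted p 0.0536). Both had groups that did not overlap. Galt, of galactose use, was at 11.4, 13.2 and 11.7 CPM in SOX17KO and at 8.14, 7.27 and 8.23 CPM in Control (edgeR adjusted p = 0.0328), and was not called without a low-count filter or when any 1 library other than SOX17KO replicate 1 was left out (highest adjusted p 0.183).

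Of 13 tested glycosyltransferases on a list of symbols that do not match the rule, 2 rose and 0 fell. An unadjusted edgeR p below 0.05 was found for 2 (DESeq2 called 2 higher and limma-voom 1, with 0 lower in each). This list is set by symbol and holds the Galnt-like gene Galntl6, which was tested and not called. Ggta1, which makes the alpha-galactose epitope, had 128 counts over the SOX17KO libraries and 1 over the Control libraries, a ratio of 142.9 with a 95% counting interval of 25.2 to 5687 (edgeR adjusted p = 0.00966). Its level was 0.763, 3.16 and 2.00 CPM in SOX17KO and 0, 0.0478 and 0 CPM in Control, so it entered the test only through SOX17KO and lends no support to the 13.6% of list genes called. Abo, which makes the A and B antigens from the H antigen of Fut1 and Fut2, was at 1.98, 5.97 and 7.48 CPM in SOX17KO and at 0.976, 0.813 and 0.723 CPM in Control (log2 fold change 2.60 ± 0.50, edgeR adjusted p = 0.0263). In both genes SOX17KO replicate 1 was the lowest of its group yet above every Control library. Ggta1 was not called without any 1 of the Control libraries (edgeR adjusted p 0.0651 to 0.0749). Abo was not called by limma-voom or when any 1 library other than SOX17KO replicate 1 was left out (highest edgeR adjusted p 0.140).

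Of 17 tested genes of glycolipid core synthesis and breakdown 1 rose and 1 fell. Galc, the lysosomal galactosylceramidase, was at 20.6, 24.8 and 23.9 CPM in SOX17KO and at 13.8, 10.5 and 11.5 CPM in Control (edgeR adjusted p = 0.00952); it lies in the shifted part of chromosome 12 and was not called without Control replicate 2 or 3 (highest adjusted p 0.0713). Gltp, a glycolipid transfer protein, was at 205.3, 218.0 and 207.1 CPM in SOX17KO and at 289.1, 266.9 and 272.8 CPM in Control (log2 fold change -0.39 ± 0.07, edgeR adjusted p = 0.0251), and was not called without SOX17KO replicate 3 or any 1 Control library (highest adjusted p 0.131). Ugcg, which makes the glucosylceramide that B4galt5 and B4galt6 use, was not called, at 61.0, 79.1 and 80.5 CPM in SOX17KO and 54.2, 62.1 and 55.7 CPM in Control (edgeR adjusted p = 0.157); it was named after its values were seen. Of 5 tested glycan sulfotransferases 1 rose and 1 fell. Chst4, which sulfates N-acetylglucosamine, was at 9.47, 21.9 and 19.7 CPM in SOX17KO and at 3.76, 3.44 and 3.08 CPM in Control (log2 fold change 2.31 ± 0.32, edgeR adjusted p = 0.00824), and was not called without any 1 Control library (highest adjusted p 0.0642). Gal3st4, which sulfates galactose of O-glycans, was at 0.852 ± 0.116 CPM in SOX17KO and 1.95 ± 0.153 CPM in Control (edgeR adjusted p = 0.0272), and it lies in the shifted part of chromosome 5 and was not called when any 1 library other than SOX17KO replicate 1 was left out (highest adjusted p 0.158).

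Of 6 tested mucin genes, which encode the proteins that carry these chains, 1 rose and 0 fell, with 4 at an unadjusted p below 0.05 (DESeq2 called 2 higher and 0 lower, limma-voom 1 and 0). Muc13, a transmembrane mucin, was at 8.89, 2.67 and 4.94 CPM in SOX17KO and at 0.398, 0.383 and 0.533 CPM in Control (log2 fold change 3.63 ± 0.50, edgeR adjusted p = 0.00783), and was not called without any 1 Control library (highest adjusted p 0.0682). Its Control libraries, at 11, 8 and 14 counts, would not have met the low-count filter without those of SOX17KO. Like Ggta1, Muc13 therefore lends no support to the 13.6% of list genes called. Muc1, also among the 4 with an unadjusted p below 0.05, had 22, 12 and 13 counts in SOX17KO and 8, 6 and 5 in Control. It too met the filter only through SOX17KO, so neither gene is support for that count of 4. Muc4, another transmembrane mucin, named after its values were seen, had most of the counts of this list. It was at 26.9, 136.4 and 111.7 CPM in SOX17KO and at 298.4, 228.3 and 204.3 CPM in Control, without overlap, and was not called (edgeR adjusted p = 0.182). Of 5 tested sialidases, fucosidases and acetylesterase genes 0 were called by edgeR, DESeq2 or limma-voom and 0 had an unadjusted p below 0.05; the one with the most counts was Fuca1, a lysosomal fucosidase, at 96.1 ± 13.6 CPM in SOX17KO and 84.4 ± 3.35 CPM in Control. Without any 1 of the Control libraries, 2 to 4 of the list genes were called higher and 0 lower.

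**Figure D4:**
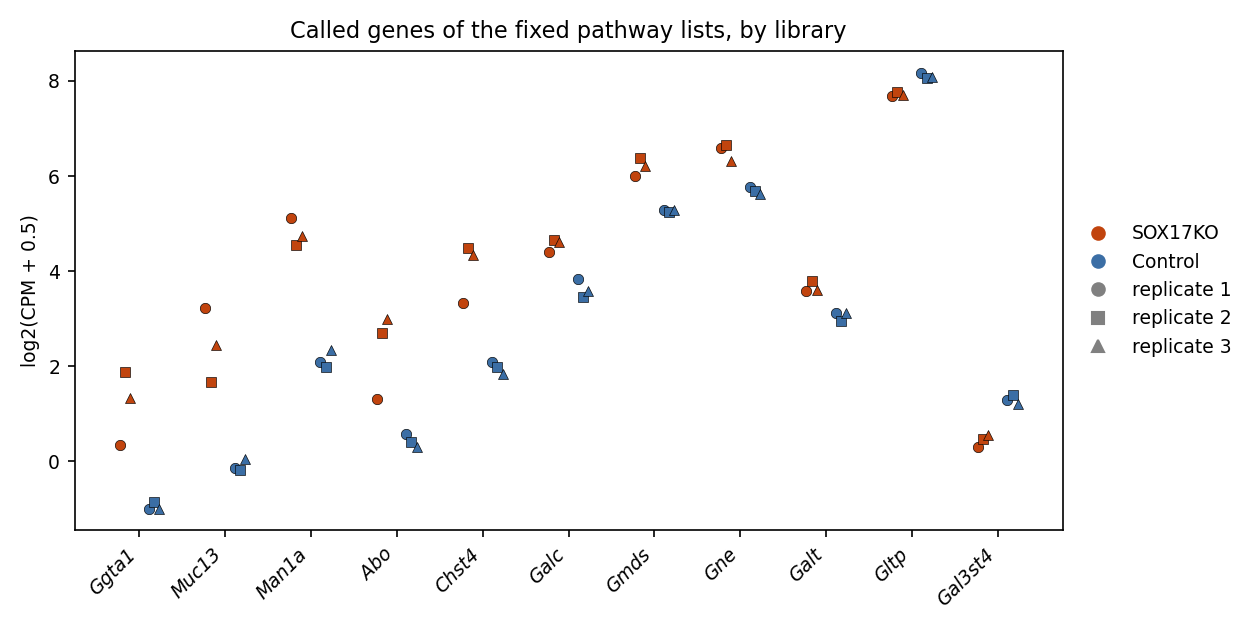
Level of the 11 called genes of the pathway lists in each library, as log2(CPM + 0.5), ordered by log2 fold change with SOX17KO left of Control. The first 9, from Ggta1 to Galt, have every SOX17KO library above every Control library, and Gltp and Gal3st4 have them below.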

How the data were processed

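Libraries from 6 mouse AKP organoid samples were poly(A)-selected and strand-specific, per the labels' protocols. The authors deposited 1 table of expected counts per gene; Bowtie, RSEM and mm9 are listed, per the submitters' processing notes, while annotation, filters and strand setting are not stated there. Expected counts were rounded and compared with edgeR 4.0.16 in R 4.3.3 (quasi-likelihood F test, TMM factors, filterByExpr with a minimum count of 10 and a minimum total of 15, Benjamini-Hochberg adjustment over 12137 genes). A gene was called at an adjusted p below 0.05; the standard error is the size of the log2 fold change over the root of F. CPM use TMM-adjusted library sizes. Alternatives used DESeq2 1.42.0, limma-voom (limma 3.58.1), other size factors, filters, unrounded values, a replicate block and each library left out. The procedure was tested on simulated data with known changes. It recovered 20.9% of 1.5-fold, 68.7% of 2-fold and 92.4% of 4-fold changes, and 4 of its 125 calls were false. A gene not called may therefore still differ by such a small fold. Chromosomes and gene order came from RefSeq on GRCm38.p6.

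Named genes were Sox17, every called member, the tested member with the most counts in each family, the 6 largest uncalled changes, and up to 3 called genes of each pathway list or, with none called, the one with the most counts; any further gene was picked with its values in view. Members, lists and rules were chosen with earlier results of these data known. Counting intervals and limits of 0 counts cover counting error only. The list symbols Muc3 (mucins) and Si (enterocyte markers) were not analysed here.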

Additional observations from a re-analysis of the deposited data

How the results depend on the processing

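Leaving out 1 library at a time gave 1 to 19 members called higher and 0 to 2 lower, and 2 to 23 pathway list genes higher and 0 to 8 lower. The highest counts came without SOX17KO replicate 1 and the lowest of members higher without any 1 Control library, where B3gnt5 alone was called; the cause was not tested. The share of all genes called moved with them, at 22.2% without SOX17KO replicate 1 and 1.56% to 1.64% without a Control library. With the replicate number as a block, 2 members were called higher (B3gnt5 and St6galnac4; 4.35%, against 2.69% of all genes), and 0 list genes lower. The labels do not say what a number shares. Deviations of same-numbered libraries from their group means correlated at -0.19, -0.05 and -0.18. With 3 libraries per group, these values cannot settle whether same-numbered libraries share a culture or a batch. Without the shifted chromosome regions 1 list gene was called lower, since Gal3st4 lies in one. All other settings kept these 4 counts within 1.5 times.

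Among the named genes B3gnt5, Man1a and Gmds were called under all 15 alternatives. B3galt5 and B4galnt1 changed sign with limma-voom (-0.20 and -0.19) and with the block (-0.15 and -0.12). When 1 library was left out, log2 fold changes that changed sign ranged over -0.13 to 0.034 for Galnt3, -0.22 to 0.33 for Gcnt3, -0.0043 to 0.32 for B3gnt3, -0.74 to 0.75 for B3galt5, -0.42 to 0.59 for B4galnt1 and -0.0062 to 0.40 for Fut2. St6galnac4, St6galnac6, B3gnt9-ps, St8sia1 and Ggta1 had no value under the filter of 1 CPM or more in 3 libraries, nor Galc and Gal3st4 without the shifted regions. Low counts limit St6galnac4, St6galnac6, St8sia1 and Ggta1.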
